A study of Mus musculus with 6 samples.

Results

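The genes of the bone morphogenetic protein (BMP) and transforming growth factor beta (TGF-beta) pathway were followed in RNA sequencing of the proximal mouse incisor after deletion of Fgfr1 in Gli1+ cells. Members were picked by a pattern of gene symbols, set with earlier results of these data known. They comprised BMP, GDF and TGF-beta ligands, activin subunits, latent TGF-beta binding proteins, receptors, Smads, Id genes and extracellular antagonists. There were 54 members among the 19060 genes of the counts table, and 53 of them were among the 15826 genes that passed the filter on low counts. Bmp15 had 0 counts in every mutant sample and was not tested, and Bmpr1b was not analysed here.

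Control mice were Fgfr1fl/fl, meaning that loxP sites flank part of each Fgfr1 allele, had no Cre, and are called wild type in the labels. Mutant mice were Gli1CreER;Fgfr1fl/fl (Gli1-Cre;Fgfr1fl/fl in the labels), in which the Gli1 promoter drives a Cre that acts once tamoxifen is given. All mice carried the floxed alleles and were 1 month old, and per the study's methods the control mice also received tamoxifen. Each group held 3 samples, collected 1 week after induction. The dissected tissue also holds epithelium, vessels and other cells, and which of its cells this Cre reached was not measured here. The sources used here do not say that each sample came from a separate mouse, so the p-values measure only the spread between these samples, which may be technical.

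BMPs, GDFs, activins and TGF-betas are secreted dimers that bring type II and type I receptor kinases together. The type I receptor then phosphorylates a receptor Smad, SMAD1, SMAD5 or SMAD9 for BMPs and SMAD2 or SMAD3 for TGF-betas and activins, which enters the nucleus with SMAD4. In the tooth, these signals are known for their part in the exchange between epithelium and mesenchyme, in odontoblast and ameloblast differentiation, and in the upkeep of the mesenchymal cells at the proximal end of the incisor.

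Total counts ran from 31060222 to 32712448 in control samples and from 5276557 to 11819576 in mutant samples, and no mutant sample reached the depth of a control sample. A count of 0 allows up to 3 counts, or 0.655, 0.256 and 0.302 CPM in mutant samples 1, 2 and 3 and at most 0.0874 CPM in a control sample, which covers counting error only. CPM are counts set to a common library size, here after upper-quartile scaling. Of the 54 members, 12 had 0 counts in at least 1 mutant sample and 0 had 0 counts in a control sample. Fgfr1, the targeted gene, had 529, 924 and 434 CPM in control samples 1, 2 and 3 and 148, 318 and 262 CPM in mutant samples 1, 2 and 3, a log2 fold change of -1.37 (SE 0.40, adjusted p = 0.0881), with every mutant sample below every control sample. Odontoblast, dental mesenchyme and ameloblast markers such as Dspp, Msx1 and Ambn were detected in every sample.

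Every p given here is from edgeR's quasi-likelihood test unless another test is named, and adjusted p are Benjamini-Hochberg values over all genes tested. By this test Smad3, which carries the TGF-beta and activin signal, and the ligand genes Gdf7 and Gdf10 were lower in the mutant incisors. These 3 of 53 tested members (5.66%) had an adjusted p under 0.05, against 6.79% of all genes tested. Gdf7 and Gdf10 had 0 counts in every mutant sample and passed the filter on low counts only through the control samples. For them the filter and the test drew on the same control values. A looser threshold, an unadjusted p under 0.05 with over 1.5-fold in either direction, was met by 11 members (20.8%), against 19.8% of all genes. By direction, 9 of these members (17.0%) had lower values in mutants, against 8.92% of all genes, and 2 members (3.77%) had higher values, against 10.9%. The groups did not overlap, with the mutant samples lower, for 10 members (18.9%), against 16.3% of all genes, and with the mutant samples higher for 3 members (5.66%), against 14.1%. The median log2 fold change of the 53 members was -0.28, with 37 below 0, and that of all genes was -0.040. Setting Gdf7 and Gdf10 at the bounds given for them below could not move the members' median of -0.28, because both genes stay below it. The transcripts of the members were longer than those of all genes, with a median of 3789 against 2928.5 bases.

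Fold changes moved with transcript length and GC content across genes. Over the 12332 protein-coding genes that averaged 50 counts or more, the median log2 fold change was 0.30 for the 25% with the shortest and -0.25 for the 25% with the longest transcripts, and 0.31 for the 25% lowest and -0.37 for the 25% highest in GC content. The fit was therefore repeated with an offset for both properties. With that correction 0 members had an adjusted p under 0.05 by edgeR, against 0.904% of all genes, and 9 had an unadjusted p under 0.05, and 8 of these were over 1.5-fold, 3 of them higher and 5 lower, against 14.6% of all genes in either direction. Smad3, Gdf7, Gdf10, Tgfbr2 and Fst were among the 9. The median of the members was then -0.16, with 29 of 53 below 0, and that of all genes was -0.12. Corrected values are given below for the members under an unadjusted p of 0.05 in either fit and for some others. With 1 sample left out at a time, the unadjusted p was under 0.05 in 6 of 6 fits for Smad3 and Smad6, in 4 for Bmp7, Fst and Gdf10, in 3 for Gdf7, and in 2 for Ltbp3, Ltbp4, Acvr1b, Tgfbr2 and Id4, where some of these fits did not test Gdf7 and Gdf10.

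**Figure D1:**
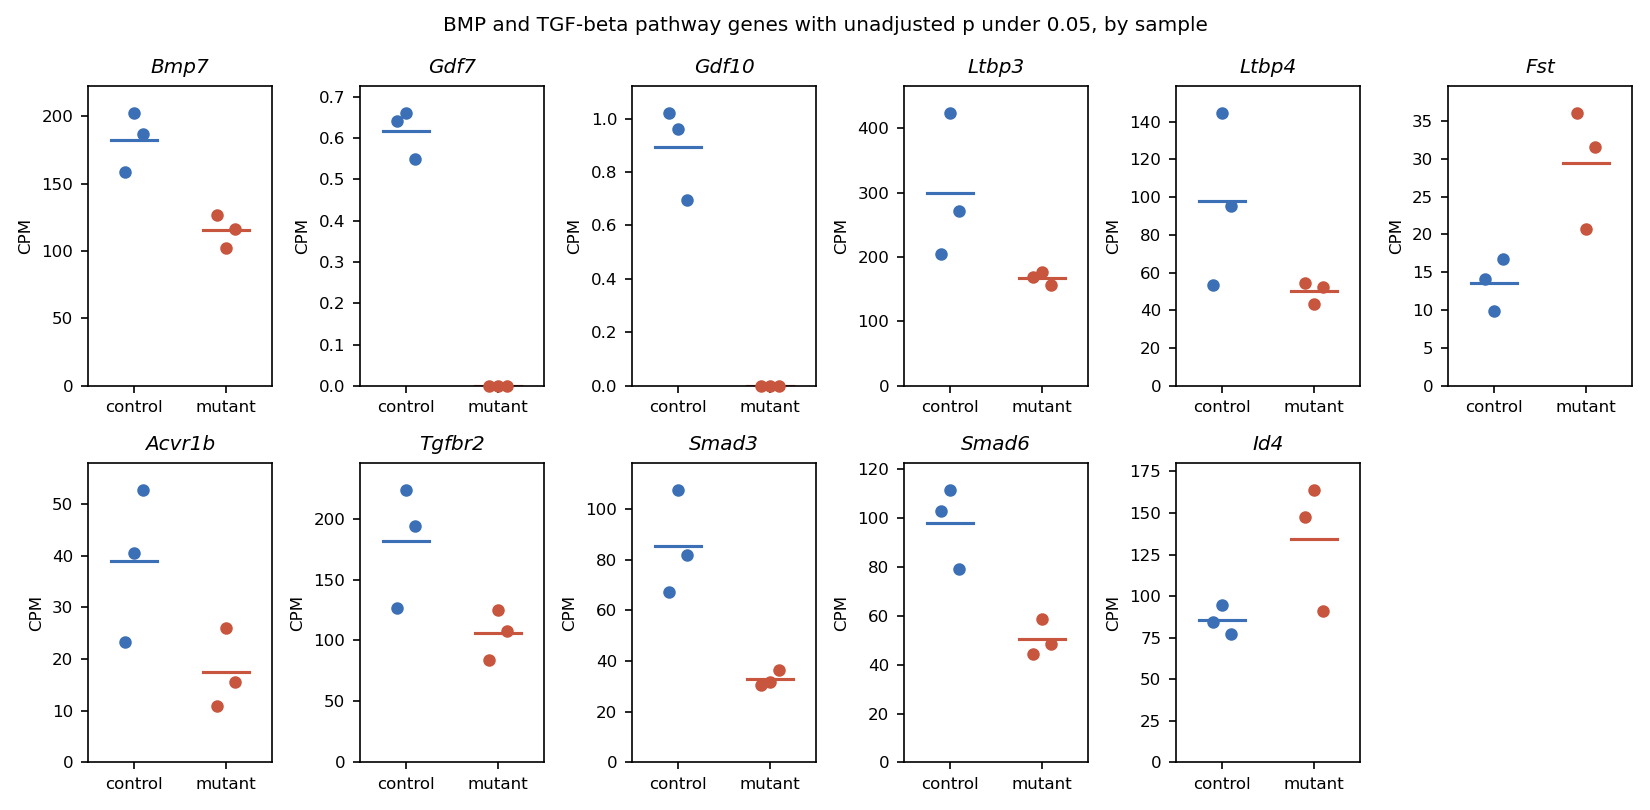
Each panel shows 1 of the 11 pathway genes with an unadjusted p under 0.05, with CPM after upper-quartile scaling on a vertical axis that starts at 0, a point for each of the 3 control (blue) and 3 mutant (red) samples, and a bar at the group mean. Smad3, Smad6, Bmp7, Tgfbr2, Ltbp3 and Fst show no overlap between the groups, Gdf7 and Gdf10 are at 0 in every mutant sample, and Ltbp4, Acvr1b and Id4 overlap.

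The 250 bases before the RefSeq start of Smad3, Smad6, Tgfbr2 and Id4 are shown as the upstream sequence of a receptor Smad, an inhibitory Smad and a receptor with lower values and of a BMP target with higher values in mutants. RefSeq promoters (GRCm38.p6) were matched by symbol for 36 of the 54 members. The windows lie at chr9:63757995-63758244 on the minus strand for Smad3, chr9:64022060-64022309 on the minus strand for Smad6, chr9:116175364-116175613 on the minus strand for Tgfbr2 and chr13:48260866-48261115 on the plus strand for Id4, and each sequence reads 5′ to 3′ towards the gene. Capitals mark matches, on either strand, to CAGAC, the core bound by SMAD3 and SMAD4, or to GGCGCC, a palindrome of the GC-rich type bound by SMAD1 and SMAD5. These motifs can share 1 base where they adjoin.
Smad3: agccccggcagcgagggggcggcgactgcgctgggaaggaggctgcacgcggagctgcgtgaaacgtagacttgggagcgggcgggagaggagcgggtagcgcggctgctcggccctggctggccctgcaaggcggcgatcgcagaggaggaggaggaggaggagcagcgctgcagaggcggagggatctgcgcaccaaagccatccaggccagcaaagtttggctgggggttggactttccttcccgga
Smad6: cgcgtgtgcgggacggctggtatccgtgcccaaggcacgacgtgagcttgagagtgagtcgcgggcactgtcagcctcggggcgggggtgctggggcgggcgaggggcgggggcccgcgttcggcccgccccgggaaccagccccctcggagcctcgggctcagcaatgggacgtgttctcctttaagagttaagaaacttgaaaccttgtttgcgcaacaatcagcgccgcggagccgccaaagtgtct
Tgfbr2: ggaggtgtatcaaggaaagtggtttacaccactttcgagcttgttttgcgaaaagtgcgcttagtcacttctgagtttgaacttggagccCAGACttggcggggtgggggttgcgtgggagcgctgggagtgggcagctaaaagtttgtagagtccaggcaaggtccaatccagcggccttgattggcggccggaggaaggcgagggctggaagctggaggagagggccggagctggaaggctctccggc
Id4: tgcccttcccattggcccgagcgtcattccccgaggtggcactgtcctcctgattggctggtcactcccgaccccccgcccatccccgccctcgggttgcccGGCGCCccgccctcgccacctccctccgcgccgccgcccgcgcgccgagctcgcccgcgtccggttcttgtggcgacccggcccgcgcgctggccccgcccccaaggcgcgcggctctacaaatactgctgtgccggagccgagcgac
The Tgfbr2 window held 1 CAGAC match, 160 bases before the start, and the Id4 window held 1 GGCGCC match, 148 bases before it, while neither motif was in the Smad3 or Smad6 window. Among all 32851 promoter windows of this length, 42.2% held CAGAC and 9.59% held GGCGCC, and among the 43 windows of members 41.9% and 27.9% did. GC content was 69.2% for Smad3, 66.8% for Smad6, 58.4% for Tgfbr2 and 75.6% for Id4. A match describes the letters of the window and is not evidence of binding.

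Levels between genes were compared as CPM per kilobase of the longest annotated transcript. In control samples the most abundant members were Id3 (305 CPM per kilobase), a dominant-negative partner of helix-loop-helix factors and a direct BMP target, and Fstl1 (303), a secreted BMP and activin binding protein. Id1 (113), Tgfb1 (111) and Bambi (95.1) followed. The lowest were Gdf7 (0.433), Gdf10 (0.171) and Bmp15 (0.106). The members at 0 in some mutant samples had control levels of at most 4.83 on this scale (Gdf5).

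**Figure D2:**
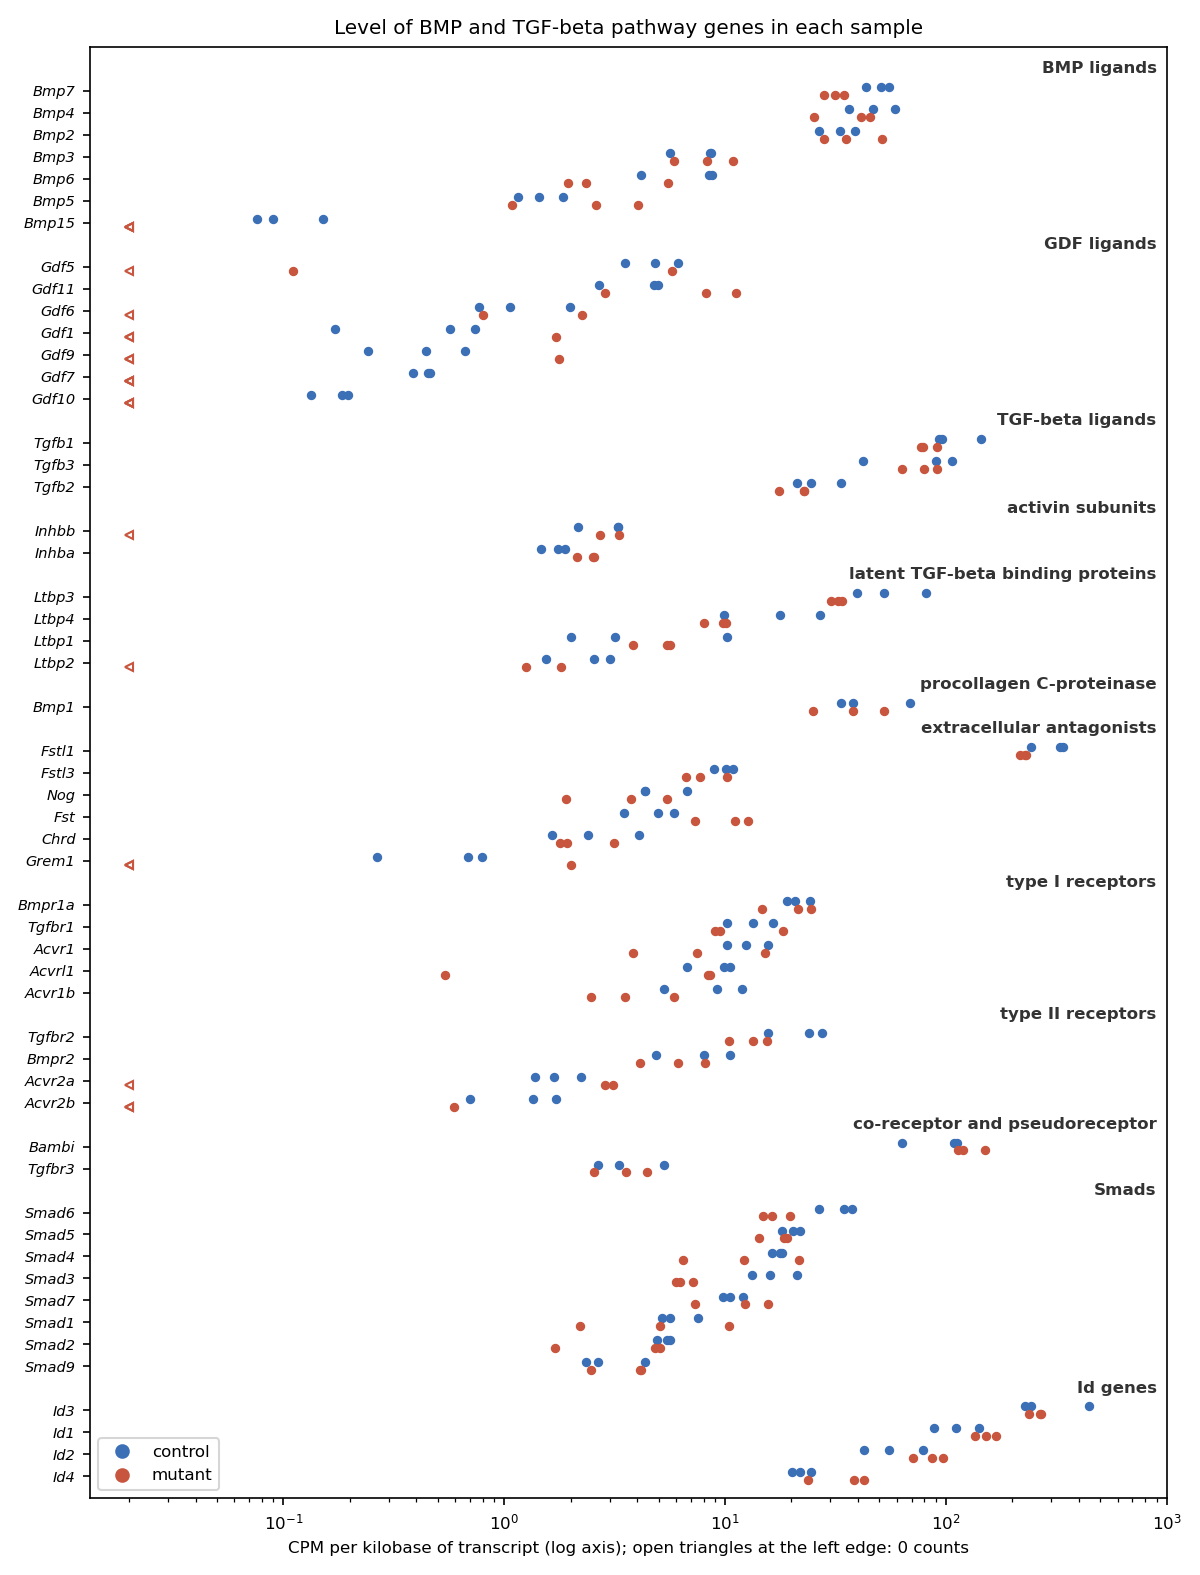
Level of 53 pathway genes in every sample, as CPM per kilobase of transcript on a log axis, grouped by role and ordered by the control mean, with control samples in blue, mutant samples in red, and open triangles at the left edge for samples with 0 counts. Triangles occur for 12 genes, in mutant samples only, and 6 of these are GDF ligands.

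Bmp7, one of the BMPs made by dental epithelium and mesenchyme, had the highest control level per kilobase among BMP ligands (49.8). Its values were 159, 202 and 187 CPM in control samples 1, 2 and 3 and 127, 103 and 116 CPM in mutant samples 1, 2 and 3, so the groups did not overlap. Its log2 fold change was -0.66 (SE 0.22, unadjusted p = 0.0165, adjusted p = 0.131), or 1.58-fold lower in mutants, and -0.21 (unadjusted p = 0.280) with the length and GC correction. Bmp4 and Bmp2, the other abundant BMPs of the tooth, had log2 fold changes of -0.34 and 0.22, and the groups overlapped. Log2 fold changes of the 6 tested BMP ligands ran from -1.13 (Bmp6) to 0.80 (Bmp5), 3 on each side of 0, and 1 of them was past the unadjusted threshold.

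Among GDF ligands, Gdf7 and Gdf10 were near the detection limit, and both passed the filter on low counts only through the control samples. Gdf7, a BMP-type ligand, had 0.641, 0.660 and 0.549 CPM in control samples 1, 2 and 3, from 65 counts in all, and 0 counts in each mutant sample. In mutant sample 1 alone, a count of 0 allows up to 0.655 CPM, which is within these control values. Gdf10, also called BMP3b, had 1.02, 0.962 and 0.693 CPM in controls, from 94 counts in all, and 0 counts in each mutant sample. With 3 counts over the mutant group as the floor, Gdf7 was at least 5.39-fold and Gdf10 at least 7.80-fold lower. This floor pools the mutant samples and covers counting error only, not the spread between samples. By edgeR each gene had an adjusted p of 0.0464 (0.0690 and 0.0698 after the length and GC correction). DESeq2, another count test, did not call either gene, with adjusted p of 0.428 and 0.269. With the replicate number as a block in edgeR, neither gene was called. Over all alternatives that kept every sample, the adjusted p reached 0.535 for Gdf7 and 0.507 for Gdf10. Bmp15, which was not tested, was at least 2.82-fold lower by the same floor, from 34 control counts.

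Gdf5, a ligand of joint and tendon formation, had the highest control level per kilobase in this group. It had 8.19, 11.2 and 14.2 CPM in control samples 1, 2 and 3 and 0, 0.256 and 13.3 CPM in mutant samples 1, 2 and 3. Mutant sample 3 was thus within the control range while the other mutant samples were near or at 0, and the log2 fold change of -1.29 had an SE of 1.48 (adjusted p = 0.713). Of its exonic bases, 40.3% also belong to a gene annotated on the opposite strand, and whether counting used strand is not given in the sources used here. Gdf1 shares all its exonic bases with Cers1 on the same strand, so its counts cannot be assigned to it. The other GDF ligands ran from -0.31 (Gdf6) to 0.85 (Gdf11), and 0 of them passed either threshold.

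TGF-beta ligands had high levels in both groups. Tgfb1 had 208, 315 and 203 CPM in control samples 1, 2 and 3 and 198, 168 and 171 CPM in mutant samples 1, 2 and 3. All mutant values lay below all control values, with a narrow gap between control sample 3 and mutant sample 1. For Tgfb1 the log2 fold change was -0.44 (SE 0.26, adjusted p = 0.408), and it was 0.033 after the correction. Tgfb2 (-0.33) and Tgfb3 (-0.026) overlapped between the groups, and 0 of the 3 ligands had an unadjusted p under 0.05.

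Activins are dimers of inhibin beta subunits. Inhbb had 9.21, 14.0 and 14.0 CPM in control samples 1, 2 and 3 and 0, 14.1 and 11.6 CPM in mutant samples 1, 2 and 3. Only mutant sample 1, the shallowest, departed from the rest, and the log2 fold change was -0.52 (SE 1.15, adjusted p = 0.867), or 0.035 without that sample and 0.18 after the correction. Inhba had a log2 fold change of 0.50 (SE 0.43, adjusted p = 0.609), with every mutant sample above every control sample.

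Latent TGF-beta binding proteins tether the inactive TGF-beta complex to the matrix. Ltbp3, the most abundant of them here and a gene needed for tooth and skeletal development, had 205, 423 and 272 CPM in control samples 1, 2 and 3 and 169, 176 and 157 CPM in mutant samples 1, 2 and 3. The mutant samples were close together and below all control samples. Its log2 fold change was -0.84 (SE 0.30, unadjusted p = 0.0233, adjusted p = 0.160), or 1.79-fold lower. In the same order of samples, Ltbp4 had 53.2, 144 and 95.4 CPM in controls and 54.3, 43.2 and 52.5 CPM in mutants, so that control sample 1 was within the mutant range. The difference of Ltbp4 was -0.97 on the log2 scale (SE 0.36, unadjusted p = 0.0264, adjusted p = 0.173). Neither difference held with the length and GC correction, which gave 0.065 for Ltbp3 and 0.026 for Ltbp4, and in both genes control sample 2 was the highest. Ltbp1 and Ltbp2 had log2 fold changes of -0.043 and -1.20, with overlapping groups.

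Bmp1, which despite its name is a protease that trims procollagens and chordin, had 140, 254 and 123 CPM in control samples 1, 2 and 3 and 194, 140 and 92.4 CPM in mutant samples 1, 2 and 3. The groups overlapped and the log2 fold change was -0.28 (SE 0.37, adjusted p = 0.761), and 0.33 after the length and GC correction.

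Follistatin (Fst), which binds and blocks activins and some BMPs, was the only extracellular antagonist past the unadjusted threshold and was higher in mutants. It had 14.1, 9.89 and 16.7 CPM in control samples 1, 2 and 3 and 36.0, 20.7 and 31.5 CPM in mutant samples 1, 2 and 3. Every mutant sample was above every control sample. On the log2 scale Fst was higher by 1.12 (SE 0.39, unadjusted p = 0.0201, adjusted p = 0.146), or 2.17-fold higher, and it was 0.98 with an unadjusted p of 0.0203 after the correction. Without control replicate 1, 2 or 3 or mutant replicate 1, 2 or 3 in turn it ran from 0.93 to 1.30.

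Fstl1 had 1281, 1243 and 926 CPM in control samples 1, 2 and 3 and 877, 821 and 861 CPM in mutant samples 1, 2 and 3, again without overlap. Its log2 fold change was -0.43 (SE 0.27, adjusted p = 0.445). The BMP antagonists Nog, Chrd and Grem1 ran from -0.47 (Nog) to 0.23 (Grem1) and Fstl3 was at -0.28, all with overlapping groups and adjusted p of 0.768 or more. Fstl3 shares 47.3% of its exonic bases with Prss57 on the opposite strand.

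Of the 5 type I receptors tested, all had log2 fold changes below 0, from -1.14 to -0.078, and 1 was past the unadjusted threshold. Acvr1b (ALK4), the type I receptor of activins, had 23.3, 40.6 and 52.7 CPM in control samples 1, 2 and 3 and 10.9, 26.0 and 15.5 CPM in mutant samples 1, 2 and 3. Mutant sample 2 was above control sample 1, so the groups overlapped. Acvr1b had a log2 fold change of -1.14 (SE 0.44, unadjusted p = 0.0325, adjusted p = 0.195), and -0.72 (unadjusted p = 0.102) after the correction. Bmpr1a (ALK3), the main BMP type I receptor and the highest of this group per kilobase, had 123, 114 and 144 CPM in controls and 87.5, 146 and 127 CPM in mutants. Its groups overlapped, and the log2 fold change was -0.078 (SE 0.26, adjusted p = 0.915), and -0.50 (SE 0.22, unadjusted p = 0.0516) after the correction. Tgfbr1 (-0.12), the TGF-beta type I receptor, Acvr1 (-0.54) and Acvrl1 (-0.63) also overlapped between groups.

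Tgfbr2, the receptor that binds TGF-beta first, was the most abundant type II receptor per kilobase. It had 127, 224 and 194 CPM in control samples 1, 2 and 3 and 84.0, 125 and 108 CPM in mutant samples 1, 2 and 3. Every mutant sample was below every control sample, with mutant sample 2 just under control sample 1. Tgfbr2 had a log2 fold change of -0.78 (SE 0.29, unadjusted p = 0.0257, adjusted p = 0.170), or 1.72-fold lower, and -0.54 (unadjusted p = 0.0153) after the correction. Acvr2b had 2.21, 5.44 and 4.31 CPM in control samples 1, 2 and 3 and 0, 1.88 and 0 CPM in mutant samples 1, 2 and 3, without overlap and with a log2 fold change of -2.59 (SE 1.63, adjusted p = 0.445). Bmpr2 (-0.35) and Acvr2a (0.19) overlapped between the groups.

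Bambi, a membrane protein shaped like a type I receptor without a kinase, dampens TGF-beta and BMP signals. It had 555, 320 and 573 CPM in control samples 1, 2 and 3 and 763, 609 and 574 CPM in mutant samples 1, 2 and 3. All mutant samples were above all control samples, but mutant sample 3 and control sample 3 were almost equal, and the log2 fold change was 0.43 (SE 0.31, adjusted p = 0.518). The co-receptor Tgfbr3 had a log2 fold change of -0.093.

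**Figure D3:**
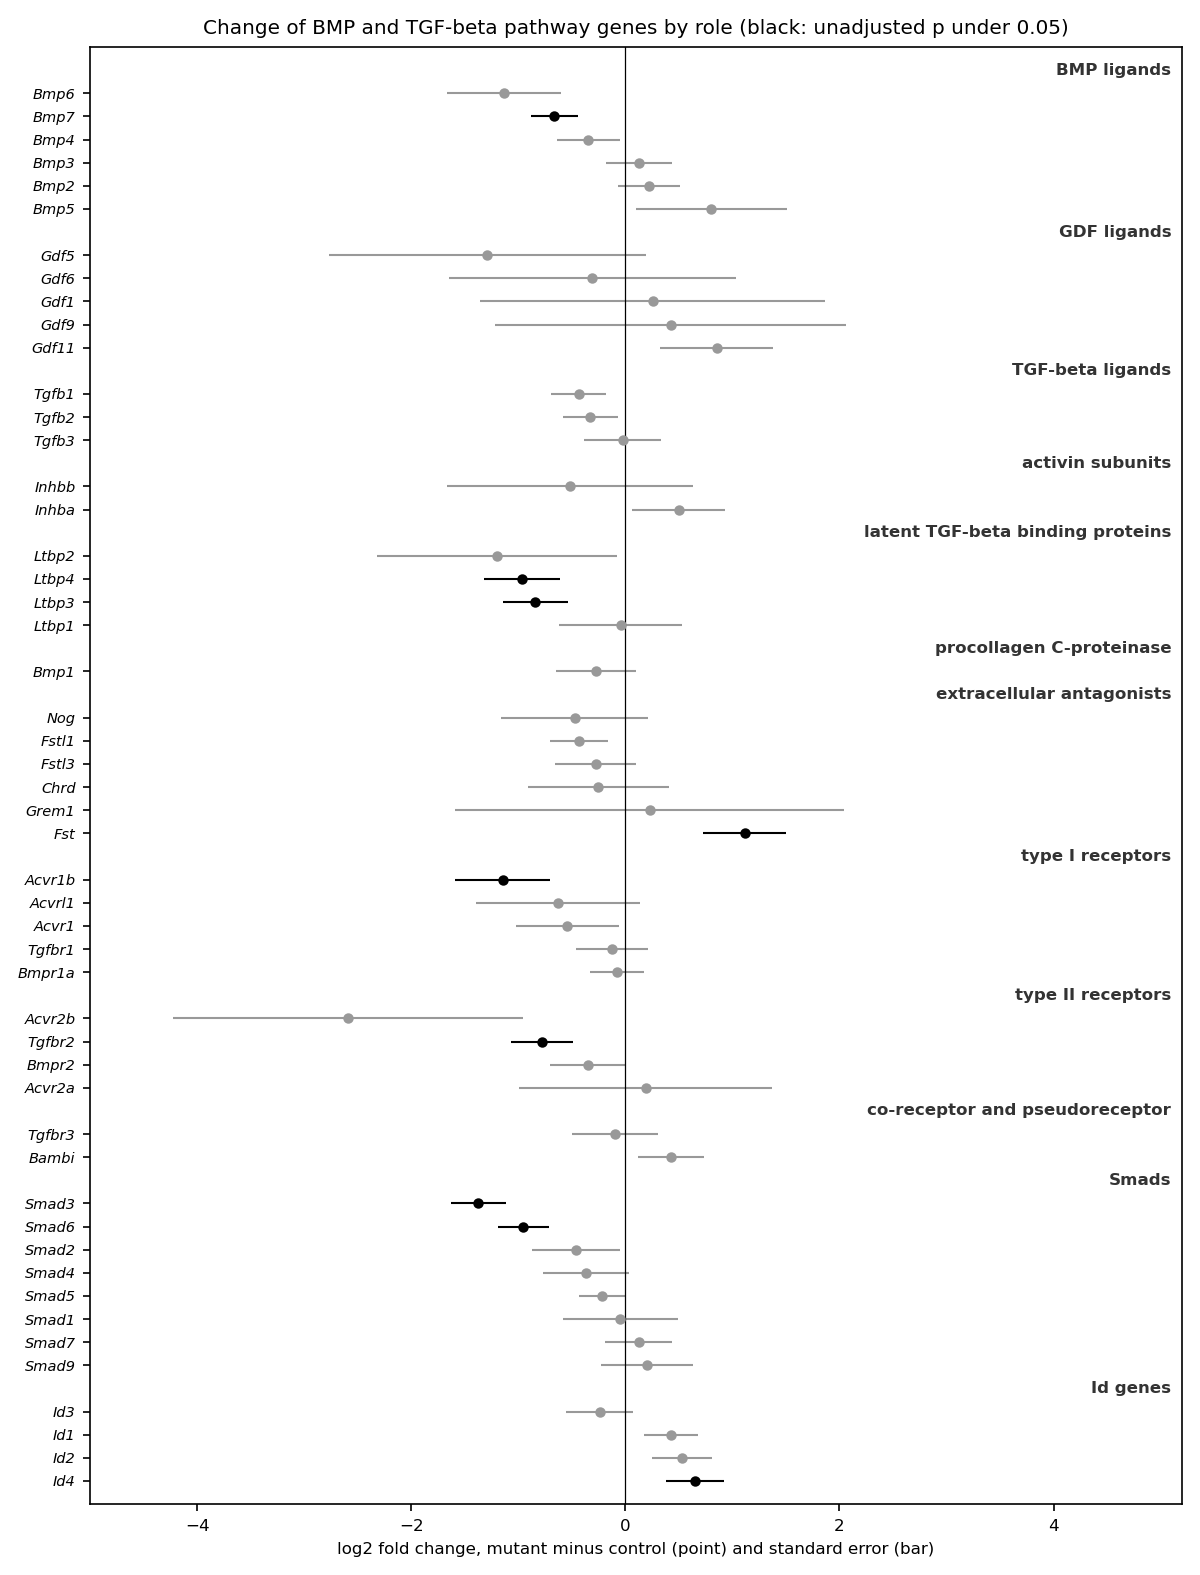
Log2 fold change of mutant over control for 50 tested pathway genes, grouped by role, with bars for the standard error and black points for an unadjusted p under 0.05. Gdf7 and Gdf10 are left out because their fitted values against 0 counts have no fixed size, and the points of all type I receptors and latent TGF-beta binding proteins lie below 0, although 3 of the 4 latent binding proteins are above 0 with the length and GC correction.

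Smad3 had 67.2, 108 and 81.7 CPM in control samples 1, 2 and 3 and 30.6, 31.7 and 36.6 CPM in mutant samples 1, 2 and 3. The lowest control sample was above the highest mutant sample by a wide margin. Its log2 fold change was -1.38 (SE 0.26, adjusted p = 0.0379), or 2.59-fold lower, and its size was between -1.52 and -1.18 when any single sample was left out. The adjusted p was then between 0.0540 and 0.190, so the call was lost whichever of the 6 samples was left out, while the unadjusted p was under 0.05 in each case. Calls over all genes also fell in these fits, from 1074 to between 76 and 606. After the length and GC correction the log2 fold change was -0.91 (SE 0.18, adjusted p = 0.0690).

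Smad6, an inhibitory Smad that is itself switched on by BMP signals, had 103, 112 and 79.1 CPM in control samples 1, 2 and 3 and 44.3, 58.6 and 48.5 CPM in mutant samples 1, 2 and 3. The groups did not overlap. Its log2 fold change was -0.96 (SE 0.24, unadjusted p = 0.00373, adjusted p = 0.0525), or 1.94-fold lower. The correction for length and GC content reduced it to -0.36 (unadjusted p = 0.120).

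The BMP receptor Smads did not share this pattern in these values. Smad1 (-0.048), Smad5 (-0.21) and Smad9 (0.20) overlapped between the groups. Smad2 (-0.46), the partner of Smad3 downstream of TGF-beta, the common Smad4 (-0.37) and the inhibitory Smad7 (0.13) also overlapped, with adjusted p of 0.617 or more. No difference between Smads was tested. Altogether 2 of the 8 Smads were past the unadjusted threshold, both lower.

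Id proteins are the best known direct targets of BMP signals. Id4 had 84.2, 94.7 and 77.2 CPM in control samples 1, 2 and 3 and 148, 164 and 91.1 CPM in mutant samples 1, 2 and 3. Mutant sample 3 was within the control range. Id4 had a log2 fold change of 0.65 (SE 0.27, unadjusted p = 0.0417, adjusted p = 0.225), or 1.57-fold higher, and 0.32 (unadjusted p = 0.254) after the correction. Id1 (0.42) and Id2 (0.53) had values above 0 that did not pass the test and were at -0.093 and 0.032 after the correction. Id3 had 566, 312 and 292 CPM in control samples 1, 2 and 3 and 346, 340 and 304 CPM in mutant samples 1, 2 and 3, with a log2 fold change of -0.24 (SE 0.31, adjusted p = 0.753). Control sample 1 stood above the other samples for Id3.

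**Figure D4:**
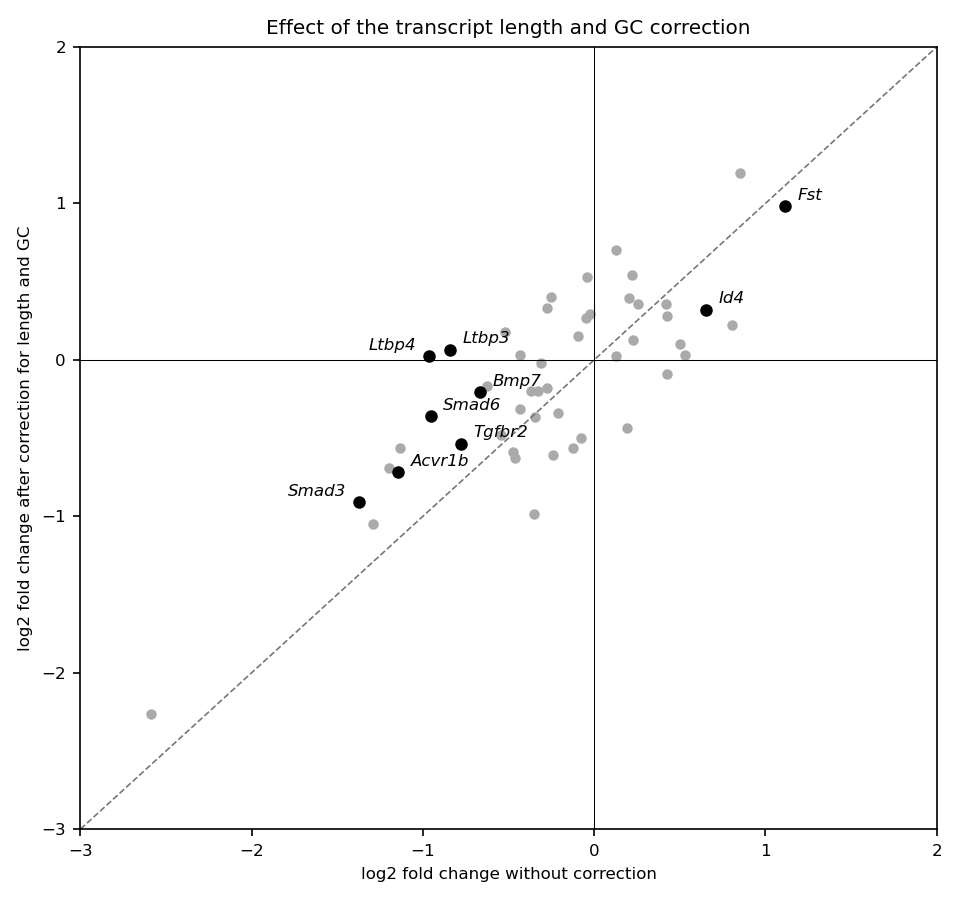
Log2 fold change of 50 tested pathway genes before (horizontal) and after (vertical) correction for length and GC content, with the genes at an unadjusted p under 0.05 before correction in black and a dashed line where both are equal. Ltbp3 and Ltbp4 move to 0.065 and 0.026, Smad3 to -0.91, and Fst stays near the line at 0.98.

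After the correction, and named only once these values were seen, Bmpr2 (-0.99, unadjusted p = 0.00295), Id3 (-0.61, unadjusted p = 0.0373), Smad7 (0.70, unadjusted p = 0.0448) and Gdf11 (1.19, unadjusted p = 0.0455) were under the unadjusted threshold, which they were not before it.

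Outside the symbol rule, 64 further genes of the pathway were tested, among them proteases, matrix proteins, ubiquitin ligases and target genes. At an unadjusted p under 0.05 and over 1.5-fold, 8 of them (12.5%) had lower values in mutants, against 8.92% of all genes, and 1 (1.56%) had higher values, against 10.9%. An adjusted p under 0.05 was reached by 1 of the 64 (1.56%), against 6.79% of all genes. That gene, Kcp, a secreted enhancer of BMP signals, had 2.94, 3.38 and 1.85 CPM in control samples 1, 2 and 3 and 0, 0 and 0.101 CPM in mutant samples 1, 2 and 3, the last from 1 count. Like Gdf7 and Gdf10, Kcp passed the filter on low counts only through the control samples. The control to mutant ratio was 71.7, with an exact 95% counting interval of 12.8 to 2841 (adjusted p = 0.0476 by edgeR). This interval pools the samples of each group and leaves out the spread between samples. For Kcp too, the filter and the test drew on the same control values.

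Furin, the convertase that cleaves the precursors of TGF-beta and BMPs, had 141, 267 and 175 CPM in control samples 1, 2 and 3 and 69.8, 106 and 120 CPM in mutant samples 1, 2 and 3, with a log2 fold change of -0.98 and an adjusted p of 0.129. Twsg1, which binds BMPs together with chordin, had 173, 171 and 175 CPM in control samples and 91.9, 114 and 128 CPM in mutant samples, with a log2 fold change of -0.64 and an adjusted p of 0.145. These 2 genes showed no overlap between the groups. Eng, a co-receptor of endothelial cells, had a log2 fold change of -0.59 (adjusted p = 0.223). Sostdc1, a secreted BMP and Wnt antagonist that limits tooth number, was the one with higher values, with 78.9, 58.2 and 89.9 CPM in control samples 1, 2 and 3 and 106, 132 and 119 CPM in mutant samples 1, 2 and 3, a log2 fold change of 0.66 and an adjusted p of 0.170. Fbn2, Tab2 and Map3k7 were also among the 9. The median log2 fold change of the 64 genes was -0.33, with 46 below 0.

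The summed CPM of cell type marker genes did not overlap between the groups for 3 of 10 lists. That of 8 dental epithelium and ameloblast markers ran from 85274 to 120895 in control samples and from 31551 to 69673 in mutant samples, with 0 of 8 markers at an unadjusted p under 0.05 and 0 of 8 at 0 in any sample. Most of this sum came from the enamel matrix genes Amelx (means of 59345 and 25371 CPM in controls and mutants) and Ambn (36398 and 16600), whereas the epithelial adhesion gene Epcam had means of 43.6 and 65.2 CPM and overlapped between the groups, as did Cdh1. That of 6 endothelial markers ran from 169.5 to 285 in control samples and from 129 to 167 in mutant samples, with 0 of 6 past that threshold and 0 of 6 at 0. That of 5 erythroid markers was higher in mutant samples (610 to 1761, against 180 to 447), with 1, Hbb-bs, past the threshold. For 7 of the 10 lists, skeletal muscle included, the sums overlapped, but muscle was highest in control sample 2 (2491) among controls and in mutant sample 1 (5373) among mutants. Control sample 2 was the highest control sample for 29 of the 53 tested members. Mutant sample 1 was the highest mutant sample for 15 of them and the lowest for 25. Without control sample 2, 4 members were past the unadjusted threshold and 1.5-fold instead of 11, and 6 were without control sample 3. The share of all genes past that threshold also fell, from 19.8% to 14.5% and 12.9%. In bulk tissue, fewer cells of a type and less RNA per cell cannot be told apart, and the part of cell composition in the members' values was not tested.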

How the data were processed

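Bulk RNA of proximal incisors was sequenced in 3 control and 3 mutant samples. Single reads were trimmed by the authors and aligned in Partek Flow to mm10, which is GRCm38, and the submitters' processing notes name TopHat2 2.0.8. The authors deposited estimated counts per gene, not normalized, while the counting model, annotation, strand setting and feature filter are not given in the sources used here. A second table with the authors' own p-values, ratios and fold changes was not used, and 0 columns of other samples were present.

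Counts were rounded to whole numbers and fitted with edgeR 4.0.16 in R 4.3.3, with upper-quartile scaling, filterByExpr (minimum count 10, total 15), no term beside genotype, and the quasi-likelihood test (two-sided), with Benjamini-Hochberg adjusted p over all 15826 genes tested. Standard errors (SE) are the log2 fold change divided by the square root of F. DESeq2 1.42.0 and limma 3.58.1 served as alternatives, beside other scalings and filters, thinned control counts, the replicate number as a block, leaving out each sample, and an offset for transcript length and GC content (spline with 4 degrees of freedom, GENCODE M21, in which 18637 of 19060 symbols matched directly and 216 through a synonym). The script was tested on simulated data.

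Values in every sample are given for each member with an unadjusted p under 0.05 and for the member with the highest control level per kilobase in each role. From the other pathway genes, the 3 highest and 3 lowest log2 fold changes past the unadjusted threshold are named. Some genes that these rules select are not reported here, by name or in the plots. Members, lists and rules were chosen with earlier results of these data known. Annotated exons of 18 members are shared in part with another gene, over 10% with a single one for 4 of them.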

Additional observations from a re-analysis of the deposited data

How the results depend on the processing

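With each of the 6 samples left out, edgeR called 0 members at an adjusted p under 0.05, and 4 to 12 members were under an unadjusted 0.05. Calls over all genes fell as well, from 1074 of 15826 with all samples. They were between 76 of 15600 (control replicate 3 left out) and 606 of 17227 (mutant replicate 1 left out). Members past 1.5-fold and an unadjusted p under 0.05 then numbered between 4 (control replicate 2 left out) and 12 (mutant replicate 1 left out). Other pathway genes past both numbered between 3 (control replicate 2 left out) and 15 (mutant replicate 3 left out). Shares of all genes past this threshold are given above for control replicates 2 and 3 left out. Counts in the other leave-out fits stand without that share and are not a result about these genes. Against 3 calls at an adjusted p under 0.05 (6.79% of all genes), total counts without further scaling gave 5 (7.18% of all genes). There 1 member was higher and 12 were lower past the unadjusted threshold and 1.5-fold, against 22.7% of all genes in either direction. A mean of at least 50 counts gave 1 call (2.81% of all genes) and thinned control counts gave 1 (2.48%). The replicate block gave 1, where 508 of 15826 genes were called. No filter, protein-coding genes only, the length and GC correction, and the replicate block with that correction gave 0 each, with 12, 11, 9 and 4 members under an unadjusted 0.05, and the last left 3 members past 1.5-fold as well. Few genes of any kind had an adjusted p under 0.05 there. The shares were 1.2%, 0.391% and 0.904% of all genes, and the last setting called 120 of 15826. At an unadjusted p under 0.05 and over 1.5-fold, the first 3 settings had 12 of 54, 11 of 53 and 8 of 53 members. The shares of all genes past that threshold were 24.8%, 16.9% and 14.6%. For the 3 members of the last setting that share is not given here. DESeq2 gave 4 calls (Smad3, Smad6, Bmp7 and Ltbp3) where 10.2% of all genes were called, and limma-voom 2 (Smad3 and Gdf10) where 8.47% were. With the replicate block, which left only Smad3, Gdf7 and Gdf10 had adjusted p of 0.409 and 0.363. Same-numbered control and mutant samples deviated from their group means with correlations of 0.0472, 0.00937 and 0.0548. These are too weak to settle a pairing, although every sample correlated best with its own number. The study's methods speak of sample pairs but do not say which samples were paired, so the main fit used no pairing.

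The length and GC correction changed the sign of 12 members, none of them under an unadjusted p of 0.05 with it. Of those with values given by sample, they were Tgfb1 (0.033), Inhbb (0.18), Ltbp3 (0.065), Ltbp4 (0.026) and Bmp1 (0.33), and of the rest Ltbp1 (0.53), Chrd (0.40), Tgfb3 (0.29), Smad1 (0.27), Tgfbr3 (0.15), Acvr2a (-0.44) and Id1 (-0.093). With the replicate block the correction gave Tgfb1 0.068, Ltbp3 0.058, Ltbp4 0.014 and Bmp1 0.30. With samples left out, log2 fold changes close to 0 ran from -0.41 to 0.13 (without control replicate 1) for Id3, from -0.58 to 0.11 (without control replicate 2) for Bmp1, from -0.25 to 0.089 (without mutant replicate 1, and 0.022 without control replicate 3) for Bmpr1a, and from -1.08 to 0.035 (without mutant replicate 1) for Inhbb. The causes of these shifts beyond fewer samples or genes tested were not tested. Total counts without scaling moved the median log2 fold change of all genes from -0.040 to -0.30 and that of the members from -0.28 to -0.55. The shallow mutant samples limit statements on low genes, where 3 counts in mutant sample 1 equal 0.655 CPM.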
